A study of Sus scrofa with 8 samples.

Results

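Axon guidance ligands and receptors were followed in limb muscle tissue of pig embryos (Sus scrofa) by bulk RNA sequencing. The set holds every row of the deposited count table whose symbol begins with SEMA, PLXN, EFNA, EFNB, EPHA, EPHB, ROBO or UNC5, or is NRP1, NRP2, DCC or NEO1, or is SLIT or NTN with a number. The rule found 72 of the 22516 rows, among 15527 rows with a symbol, and all 72 passed the filter on low counts. It took in 35 ligands and 35 receptors. The other 2 rows matched by their letters alone: UNC50, a membrane protein unrelated to the netrin receptors, and UNC5CL, a protein that resembles part of a UNC5 receptor. The 70 guidance genes are described below, and these 2 are given once.

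The 8 libraries formed 4 groups of 2: knockout at embryonic day 62 (E62), wild type at E62, knockout at E41 and wild type at E41. The knockout embryos lack MYF5, MYOD and MYF6, transcription factors that commit cells to the skeletal muscle lineage, and the wild-type embryos (WT in the labels) carry no stated change. The sample labels, followed here, give a knockout and E62, although the series title speaks of a knockdown and the growth protocol of E60. Totals ran from 23402052 to 60539245 counts, with 52630708 to 60539245 in knockout E62, 35867841 to 37676855 in wild-type E62, 42352383 to 42668408 in knockout E41 and 23402052 to 25239378 in wild-type E41. MYF5 and MYF6 had 0 counts in all 4 knockout libraries. MYOD1 had 77 and 88 counts in knockout E62, against 5715 and 5203 in wild-type E62, and 28 and 20 counts in knockout E41, against 1503 and 2161 in wild-type E41. Of 8 measured skeletal muscle genes of a marker list of 10, all 8 were lower in the knockout at both stages, and their summed level was 12.4 and 14.4 CPM in knockout E62, against 32441 and 39716 CPM in wild-type E62, and 29.9 and 25.6 CPM in knockout E41, against 14588 and 13225 CPM in wild-type E41. The knockout tissue labelled limb muscle thus held little muscle RNA. Library names differ in a number from group to group, and those of wild-type E41 also in a limb code, so litter, preparation and limb cannot be told apart from the groups. The libraries of a group share the number that differs between groups, so whether they come from the same litter cannot be told. Sample titles label the replicates biological without naming the animals. Within a group the library names differ in a further number, marked Emb in knockout E62. The p-values reflect only how far these libraries spread. The 2 knockout E62 libraries lay apart from each other on the second axis of a principal component analysis, so counts without each of them are given.

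Growing axons, vessels and migrating cells read a small set of cell surface and secreted cues. Slits act through Robo receptors. Secreted class 3 semaphorins bind neuropilins, which signal through plexins, while most membrane semaphorins bind plexins directly. Ephrins, held on the cell surface, bind Eph receptor tyrosine kinases and signal in both cells. Netrins attract through DCC and neogenin (NEO1) and repel through UNC5 receptors. In mouse and chick limbs these systems steer motor axons, pattern vessels and influence where muscle precursors settle.

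Levels are given for each library as CPM, its counts scaled to a common TMM-adjusted library size, and changes as log2 fold changes ± SE (n = 2 libraries per group) of knockout over wild type unless named otherwise. Adjusted p-values come from edgeR's quasi-likelihood test with Benjamini-Hochberg adjustment over all 17020 genes tested, and a call means an adjusted p under 0.05. CPM is not corrected for gene length, so levels are compared between groups and never between genes. In bulk tissue, a lower level from fewer cells of a type and from less RNA per cell cannot be told apart.

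At E62 the knockout had higher RNA of 31 of the 72 members and lower RNA of 12, which is 43 called members or 59.7%. Of all genes tested, 47.2% were called at E62, 21.0% higher and 26.2% lower. The share of members called higher, 43.1%, was thus above the share among all genes, and the share called lower, 16.7%, was below it. The median change of the members was 0.54 on the log2 scale against 0.06 over all genes, or 0.44 against 0.06 with genes of very few counts set to a floor of 3 counts. Without knockout E62 replicate 2, 39 members were called, 29 higher and 10 lower, where 38.8% of all genes were called, and without replicate 1, 37 were called, 27 higher and 10 lower, where 39.1% were. The count of members called, and the share of all genes called, fell further when either wild-type E62 library was left out. Together the 72 members took 0.396% and 0.439% of all counts in knockout E62, against 0.274% and 0.265% in wild-type E62. These are shares of raw totals, without the TMM factors of 1.12 and 1.14 in knockout E62 and 0.927 and 0.901 in wild-type E62. They cannot be set beside the TMM-scaled changes.

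At E41 the direction was more one-sided: 39 members were higher and 6 lower in the knockout, 45 or 62.5% in all. Of all genes tested, 39.2% were called at E41, 18.5% higher and 20.8% lower. Members were higher in 54.2% and lower in 8.33% of cases. The median change was 0.62 against 0.09 over all genes. The members took 0.558% and 0.549% of counts in knockout E41, against 0.306% and 0.292% in wild-type E41. These are again shares of raw totals, without the TMM factors of 1.10 and 1.08 in knockout E41 and 0.885 and 0.896 in wild-type E41. The count depended on single libraries: it was 25 without knockout E41 replicate 1, where 22.5% of all genes were called, 27 without replicate 2, where 23.2% were, and 28 without wild-type E41 replicate 2, where 28.4% were.

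Between the stages, 22 members were called higher at both, among them both neuropilins, SLIT2 and SLIT3, 6 of the 8 ephrins and 4 of the 5 EphB receptors. Another 6 were called lower at both: NTN1, PLXNA2, SEMA3G, SEMA4D, SEMA6A and SEMA6B. PLXNA1, SEMA6C, SEMA6D and UNC5A were lower at E62 and higher at E41. A further 9 were called higher and 2 lower at E62 with no call at E41, 13 were called higher at E41 with no call at E62, and 16 had no call at either stage. The comparisons at E62 and E41 share no library, and 54 of the 72 changes had the same sign at both. Pearson's r was 0.646 and Spearman's rho 0.564, with r 0.604 over all genes, a description across genes that are not independent of each other. The r of the members was thus close to that over all genes. Calls and signs at both stages were not counted over all genes, so these counts are not read as particular to the members.

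**Figure D1:**
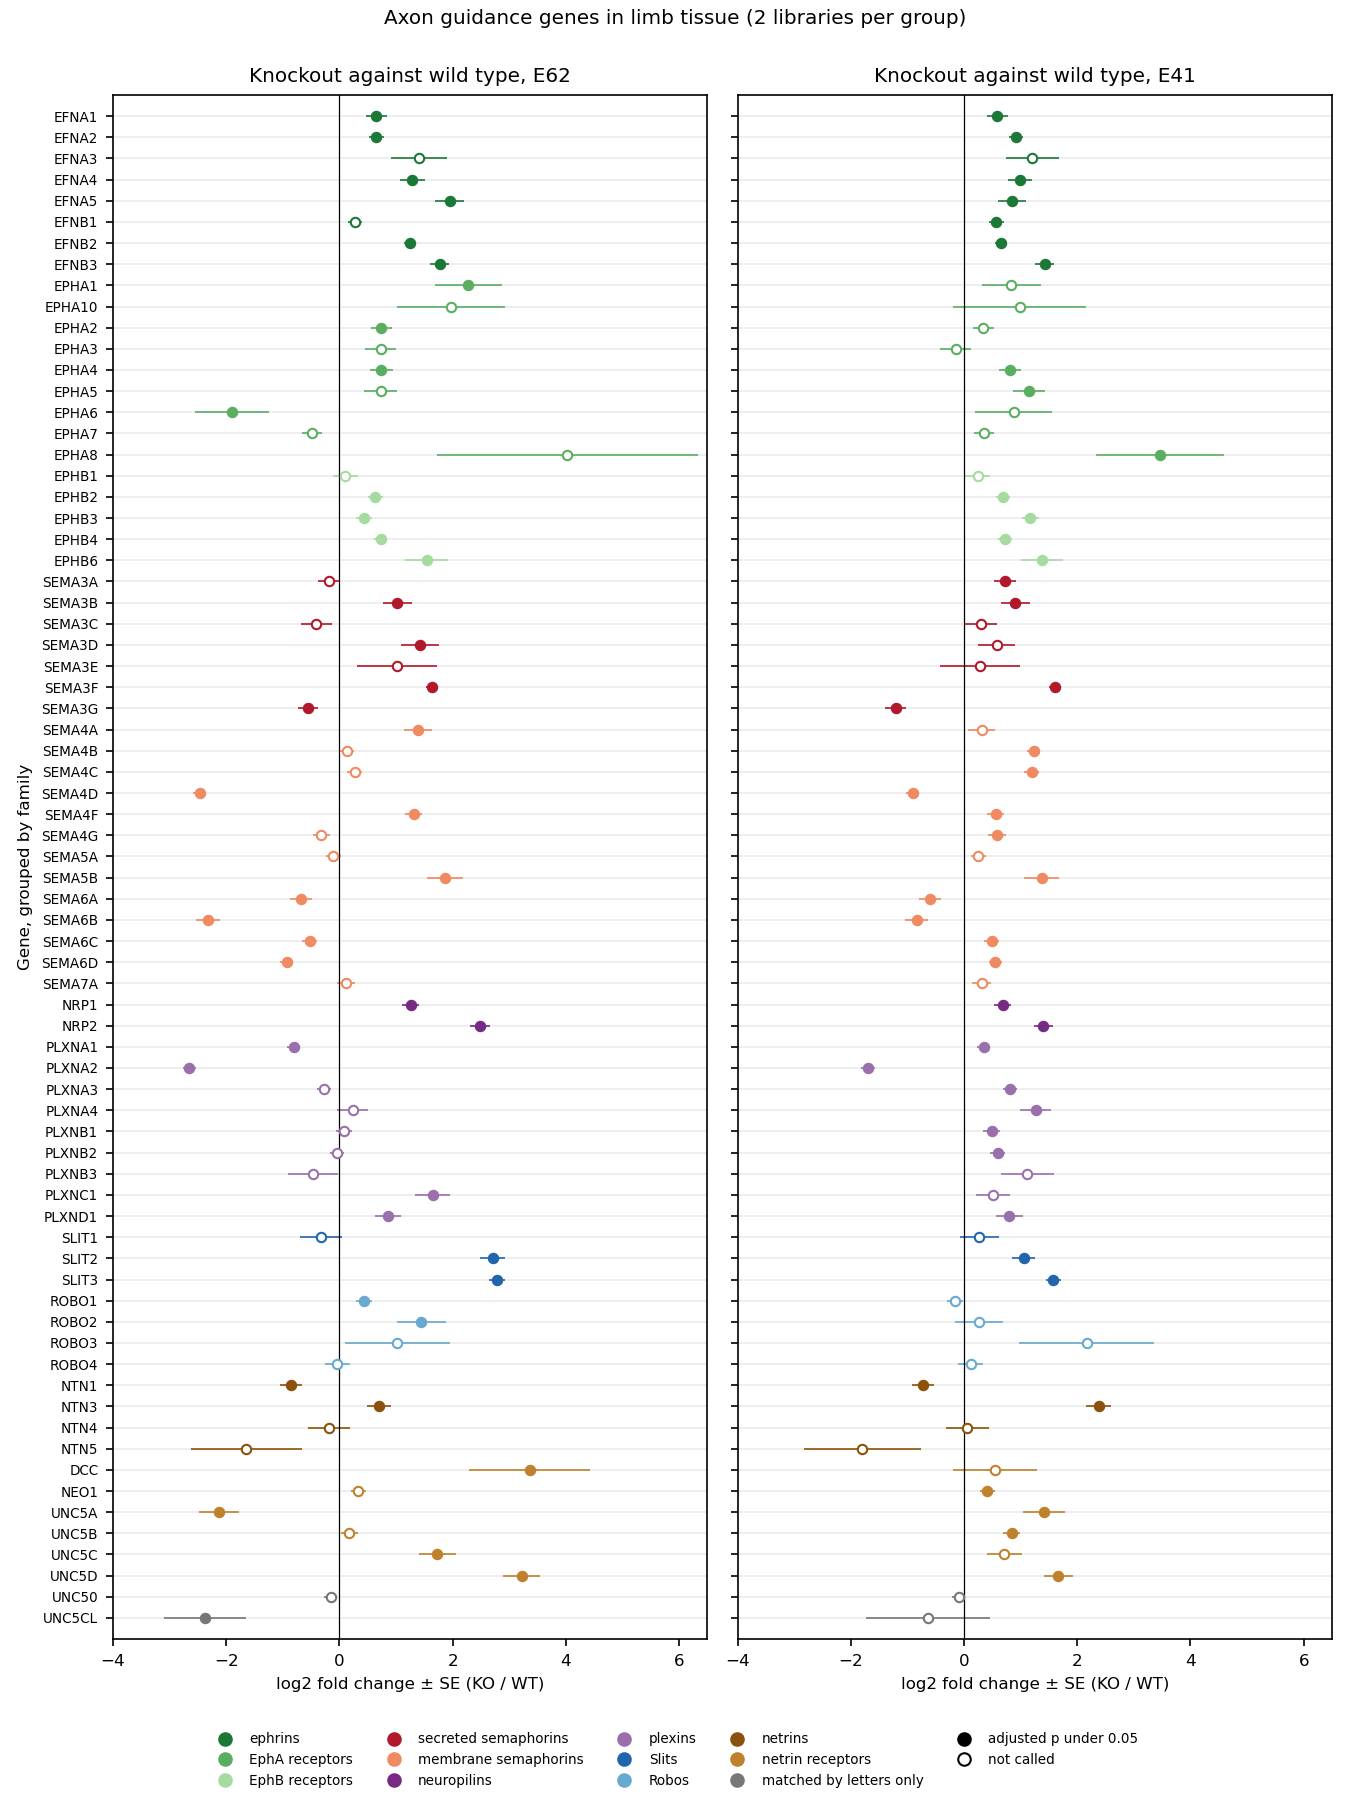
Log2 fold change ± SE of knockout over wild type for the 72 members at E62 (left) and E41 (right), coloured by family; filled points were called, open points were not (2 libraries per group). Ephrins, EphB receptors and neuropilins lie right of 0 at both stages, while PLXNA2, SEMA4D and SEMA6B lie left of it; the EPHA8 point at E62 rests on 6 counts against 0.

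SLIT2 and SLIT3 were among the members raised most at E62, and both were also higher at E41. SLIT3, a secreted repellent, had 204 and 235 CPM in knockout E62, against 28.9 and 35.0 CPM in wild-type E62, and 421 and 374 CPM in knockout E41, against 139 and 127 CPM in wild-type E41. Both knockout libraries were above both wild-type libraries at each stage, with changes of 2.78 ± 0.14 at E62 (adjusted p = 4.1e-06) and 1.58 ± 0.13 at E41 (adjusted p = 0.00013). SLIT2, the Slit best known for repelling axons, had 95.3 and 64.2 CPM in knockout E62, against 14.0 and 10.3 CPM in wild-type E62, and 85.7 and 94.9 CPM in knockout E41, against 44.8 and 42.3 CPM in wild-type E41. Its groups did not overlap at either stage, and the changes were 2.71 ± 0.22 at E62 (adjusted p = 9.8e-05) and 1.05 ± 0.21 at E41 (adjusted p = 0.0071). Without wild-type E41 replicate 2 the E41 call of SLIT2 was lost (adjusted p = 0.0516). SLIT1, the Slit most restricted to the nervous system, had 1.79 and 1.25 CPM in knockout E62, against 2.50 and 1.30 CPM in wild-type E62, and 16.7 and 14.3 CPM in knockout E41, against 15.8 and 9.91 CPM in wild-type E41. SLIT1 had no genotype call, and it was the stages that stood apart.

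Of the Slit receptors, ROBO1 and ROBO2 were called at E62 only weakly, and none of the 4 Robos was called at E41. Among all genes, 47.2% were called at E62 and 39.2% at E41. ROBO2 had 69.6 and 34.9 CPM in knockout E62, against 24.9 and 13.3 CPM in wild-type E62, a change of 1.45 ± 0.43 (adjusted p = 0.038). ROBO1 had 125 and 102 CPM in knockout E62, against 93.9 and 74.4 CPM in wild-type E62, a change of 0.43 ± 0.14 (adjusted p = 0.04). Both calls were lost without knockout E62 replicate 1 (adjusted p = 0.211 for ROBO1 and 0.123 for ROBO2) and without wild-type E62 replicate 2 (0.198 and 0.144), as well as in other fits. At E41, ROBO1 had 169 and 171 CPM in the knockout, against 178 and 202 CPM in wild type, and ROBO2 had 29.3 and 41.6 CPM, against 29.0 and 30.0 CPM. ROBO4, an endothelial Robo, had 26.2 and 42.6 CPM in knockout E62, against 38.4 and 32.2 CPM in wild-type E62, and 26.5 and 26.0 CPM in knockout E41, against 26.0 and 22.3 CPM in wild-type E41, so its groups overlapped or nearly touched. ROBO3, a commissural axon receptor, stayed under 1 CPM in every library.

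The neuropilins, coreceptors of class 3 semaphorins and of VEGF, were higher in the knockout at both stages. NRP2 had 154 and 166 CPM in knockout E62, against 27.6 and 29.7 CPM in wild-type E62, and 285 and 350.3 CPM in knockout E41, against 140.4 and 100.4 CPM in wild-type E41. The change was 2.48 ± 0.18 at E62 (adjusted p = 3.6e-05) and 1.40 ± 0.17 at E41 (adjusted p = 0.00077), with no overlap of groups at either stage. NRP1 had 222 and 268 CPM in knockout E62, against 96.4 and 108 CPM in wild-type E62, and 295 and 265 CPM in knockout E41, against 194 and 154 CPM in wild-type E41. It was 2.39-fold higher at E62 (log2 change 1.26 ± 0.15, adjusted p = 0.00038) and 1.61-fold higher at E41 (0.68 ± 0.15, adjusted p = 0.0083). The E41 call of NRP1 was lost without knockout E41 replicate 1 (adjusted p = 0.055).

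Of the 7 secreted semaphorins, 3 were higher and 1 lower at each stage, or 42.9% and 14.3%. Among all genes, 21.0% were higher and 26.2% lower at E62, and 18.5% and 20.8% at E41. SEMA3F, the class 3 semaphorin with a preference for NRP2, had 77.9 and 88.2 CPM in knockout E62, against 28.2 and 25.3 CPM in wild-type E62, and 226 and 206 CPM in knockout E41, against 71.7 and 70.6 CPM in wild-type E41. The knockout libraries lay about equally far above wild type at the stages: 1.64 ± 0.10 at E62 (adjusted p = 1.5e-05) and 1.60 ± 0.10 at E41 (adjusted p = 3.2e-05), with a difference between stages of 0.03 ± 0.14. SEMA3B, its neighbour on the chromosome, was also higher at both (1.03 ± 0.25 and 0.91 ± 0.25), though the E62 call was lost without wild-type E62 replicate 1 (adjusted p = 0.0791) and the E41 call without knockout E41 replicate 2 (0.136) or wild-type E41 replicate 2 (0.13). SEMA3G, a class 3 semaphorin made by vessels, moved the other way. It had 70.7 and 69.4 CPM in knockout E62, against 123 and 83.8 CPM in wild-type E62, and 22.4 and 18.5 CPM in knockout E41, against 46.2 and 48.4 CPM in wild-type E41. The change was -1.21 ± 0.18 at E41 (adjusted p = 0.0019) and -0.56 ± 0.18 at E62 (adjusted p = 0.033), and the E62 call was lost in several fits (adjusted p = 0.268 with library size alone, and 0.158 without wild-type E62 replicate 1).

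SEMA3A, the NRP1 ligand that repels motor and sensory axons, was called higher at E41 only. It had 84.2 and 105 CPM in knockout E41, against 64.2 and 50.5 CPM in wild-type E41 (0.72 ± 0.20, adjusted p = 0.025), a call lost without knockout E41 replicate 2 (0.133) or wild-type E41 replicate 2 (0.131). At E62 it had 56.4 and 56.5 CPM in the knockout, against 75.5 and 52.5 CPM in wild type, and the groups overlapped. SEMA3D was called higher at E62 (1.42 ± 0.33, adjusted p = 0.014), with 148 and 109 CPM in knockout E62, against 31.6 and 64.5 CPM in wild-type E62. That call was lost without knockout E62 replicate 1 (0.0617) and with only the E62 groups in the fit (0.0574). SEMA3C, with 173 and 171 CPM in knockout E62, against 174 and 282 CPM in wild-type E62, and SEMA3E, the ligand of PLXND1, with 10.7 and 2.24 CPM, against 2.23 and 4.18 CPM, had no call at either stage.

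Of 13 membrane semaphorins, 3 were higher and 5 lower at E62 (23.1% and 38.5%, against 21.0% and 26.2% of all genes). At E41, 7 were higher and 3 lower (53.8% and 23.1%, against 18.5% and 20.8%). The share higher at E62 and the share lower at E41 were thus close to those of all genes. SEMA4D, a ligand of PLXNB1 known from immune cells, oligodendrocytes and bone, had 10.5 and 12.4 CPM in knockout E62, against 64.4 and 62.6 CPM in wild-type E62, and 12.1 and 10.7 CPM in knockout E41, against 21.6 and 21.3 CPM in wild-type E41. The 4 knockout libraries lay in a narrow band below all wild-type libraries, with changes of -2.47 ± 0.12 at E62 (adjusted p = 3.7e-06) and -0.91 ± 0.12 at E41 (adjusted p = 0.0009). SEMA6B, a transmembrane semaphorin that binds PLXNA4 in mouse, had 15.7 and 23.9 CPM in knockout E62, against 109 and 89.7 CPM in wild-type E62, and 34.2 and 28.6 CPM in knockout E41, against 58.5 and 53.5 CPM in wild-type E41. Its change was -2.33 ± 0.21 at E62 (adjusted p = 0.00016) and -0.84 ± 0.21 at E41 (adjusted p = 0.017), and the groups did not overlap. The E41 call was lost without knockout E41 replicate 2 (0.0999), without either wild-type E41 replicate (0.0968 and 0.0593) and with library size alone (0.0774).

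SEMA6A, which binds PLXNA2 and PLXNA4, had 74.3 and 112 CPM in knockout E62, against 163 and 135 CPM in wild-type E62, and 97.8 and 103 CPM in knockout E41, against 148 and 157 CPM in wild-type E41. Its calls, -0.68 ± 0.19 and -0.60 ± 0.19, were lost with library size alone (adjusted p = 0.151 at E62 and 0.234 at E41) and in several fits that left a library out. SEMA6D, a ligand of PLXNA1, had 38.1 and 37.7 CPM in knockout E62, against 80.4 and 64.1 CPM in wild-type E62, but 75.0 and 69.3 CPM in knockout E41, against 48.9 and 49.5 CPM in wild-type E41. Knockout was thus the lower group at E62 (-0.93 ± 0.12, adjusted p = 0.00051) and the higher at E41 (0.55 ± 0.12, adjusted p = 0.0076), the E41 call being lost without knockout E41 replicate 1 (0.0544). SEMA6C followed the same order with smaller changes, -0.52 ± 0.13 at E62 (lost with library size alone, 0.205, and without wild-type E62 replicate 1, 0.0501) and 0.49 ± 0.13 at E41 (lost without 3 of the 4 E41 libraries, up to 0.109).

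Higher in the knockout at both stages were SEMA5B (1.87 ± 0.31 and 1.37 ± 0.31) and SEMA4F (1.32 ± 0.15 and 0.56 ± 0.15), whose E41 calls were lost without some libraries (up to 0.0644 for SEMA5B and 0.103 for SEMA4F). SEMA4B and SEMA4C, a ligand of PLXNB2, were higher at E41 (1.23 ± 0.12 and 1.20 ± 0.13, adjusted p = 0.00028 and 0.00049) and not called at E62 (0.14 ± 0.12 and 0.27 ± 0.13). SEMA4A was higher at E62 (1.39 ± 0.25, adjusted p = 0.0028), with 8.50 and 6.74 CPM in the knockout, against 2.89 and 2.92 CPM in wild type. SEMA4G was called higher at E41 (0.58 ± 0.15), a call lost without 3 of the 4 E41 libraries (up to 0.0895). SEMA5A and SEMA7A, the ligand of PLXNC1, had no call at either stage.

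Among plexins, the signalling receptors of semaphorins, PLXNA2 fell furthest. It had 15.4 and 18.2 CPM in knockout E62, against 114 and 97.8 CPM in wild-type E62, and 26.6 and 25.6 CPM in knockout E41, against 82.9 and 86.3 CPM in wild-type E41. All knockout libraries were far below all wild-type libraries, 6.28-fold lower at E62 (-2.65 ± 0.12, adjusted p = 2.5e-06) and 3.24-fold lower at E41 (-1.70 ± 0.12, adjusted p = 4.8e-05). PLXNA1 had 103 and 92.3 CPM in knockout E62, against 171 and 171 CPM in wild-type E62, but 181 and 151 CPM in knockout E41, against 124 and 136 CPM in wild-type E41. It was lower at E62 (-0.81 ± 0.11, adjusted p = 0.00086) and called higher at E41 (0.35 ± 0.11, adjusted p = 0.041), a call that was lost without knockout E41 replicate 1 (0.265) or either wild-type E41 replicate (0.132 and 0.067) and with only the E41 groups in the fit (0.0706). Its ligand SEMA6D, above, showed the same order of groups.

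At E41, PLXNA3 (0.81 ± 0.13, adjusted p = 0.002), PLXNA4 (1.27 ± 0.28), PLXNB1 (0.49 ± 0.14) and PLXNB2 (0.59 ± 0.12) were also higher, and none of these was called at E62. Only the PLXNA3 call held in every fit; without knockout E41 replicate 1 the adjusted p was 0.0559 for PLXNA4, 0.0835 for PLXNB1 and 0.0545 for PLXNB2. PLXNB1, the receptor of SEMA4D, had 41.7 and 34.7 CPM in knockout E62, against 36.5 and 35.5 CPM in wild-type E62, so the receptor overlapped where the ligand was far apart. PLXNC1, the receptor of SEMA7A, was higher at E62 (1.65 ± 0.30, adjusted p = 0.0038), with 23.5 and 19.8 CPM in the knockout, against 5.92 and 7.89 CPM in wild type. PLXND1, the endothelial plexin that binds SEMA3E, had 228 and 372 CPM in knockout E62, against 171 and 160.4 CPM in wild-type E62, and 278 and 235 CPM in knockout E41, against 164 and 129.8 CPM in wild-type E41. Its calls (0.86 ± 0.23 and 0.80 ± 0.23) were lost without knockout E62 replicate 2 (0.0636) or either wild-type E62 replicate (up to 0.108), and at E41 without any single E41 library (up to 0.152). Summed endothelial markers were higher in the same libraries, at 1035 and 1669 CPM in knockout E62, against 872 and 895 CPM in wild-type E62. At E41 they were at 1105 and 992 CPM in the knockout, against 835 and 683 CPM in wild type. Other members known from vessels went different ways. ROBO4 had no call and SEMA3G was lower at both stages, while EFNB2 and EPHB4 were higher at both and UNC5B at E41. The part of the endothelial markers in the PLXND1 values, or in those of these members, was not tested.

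**Figure D2:**
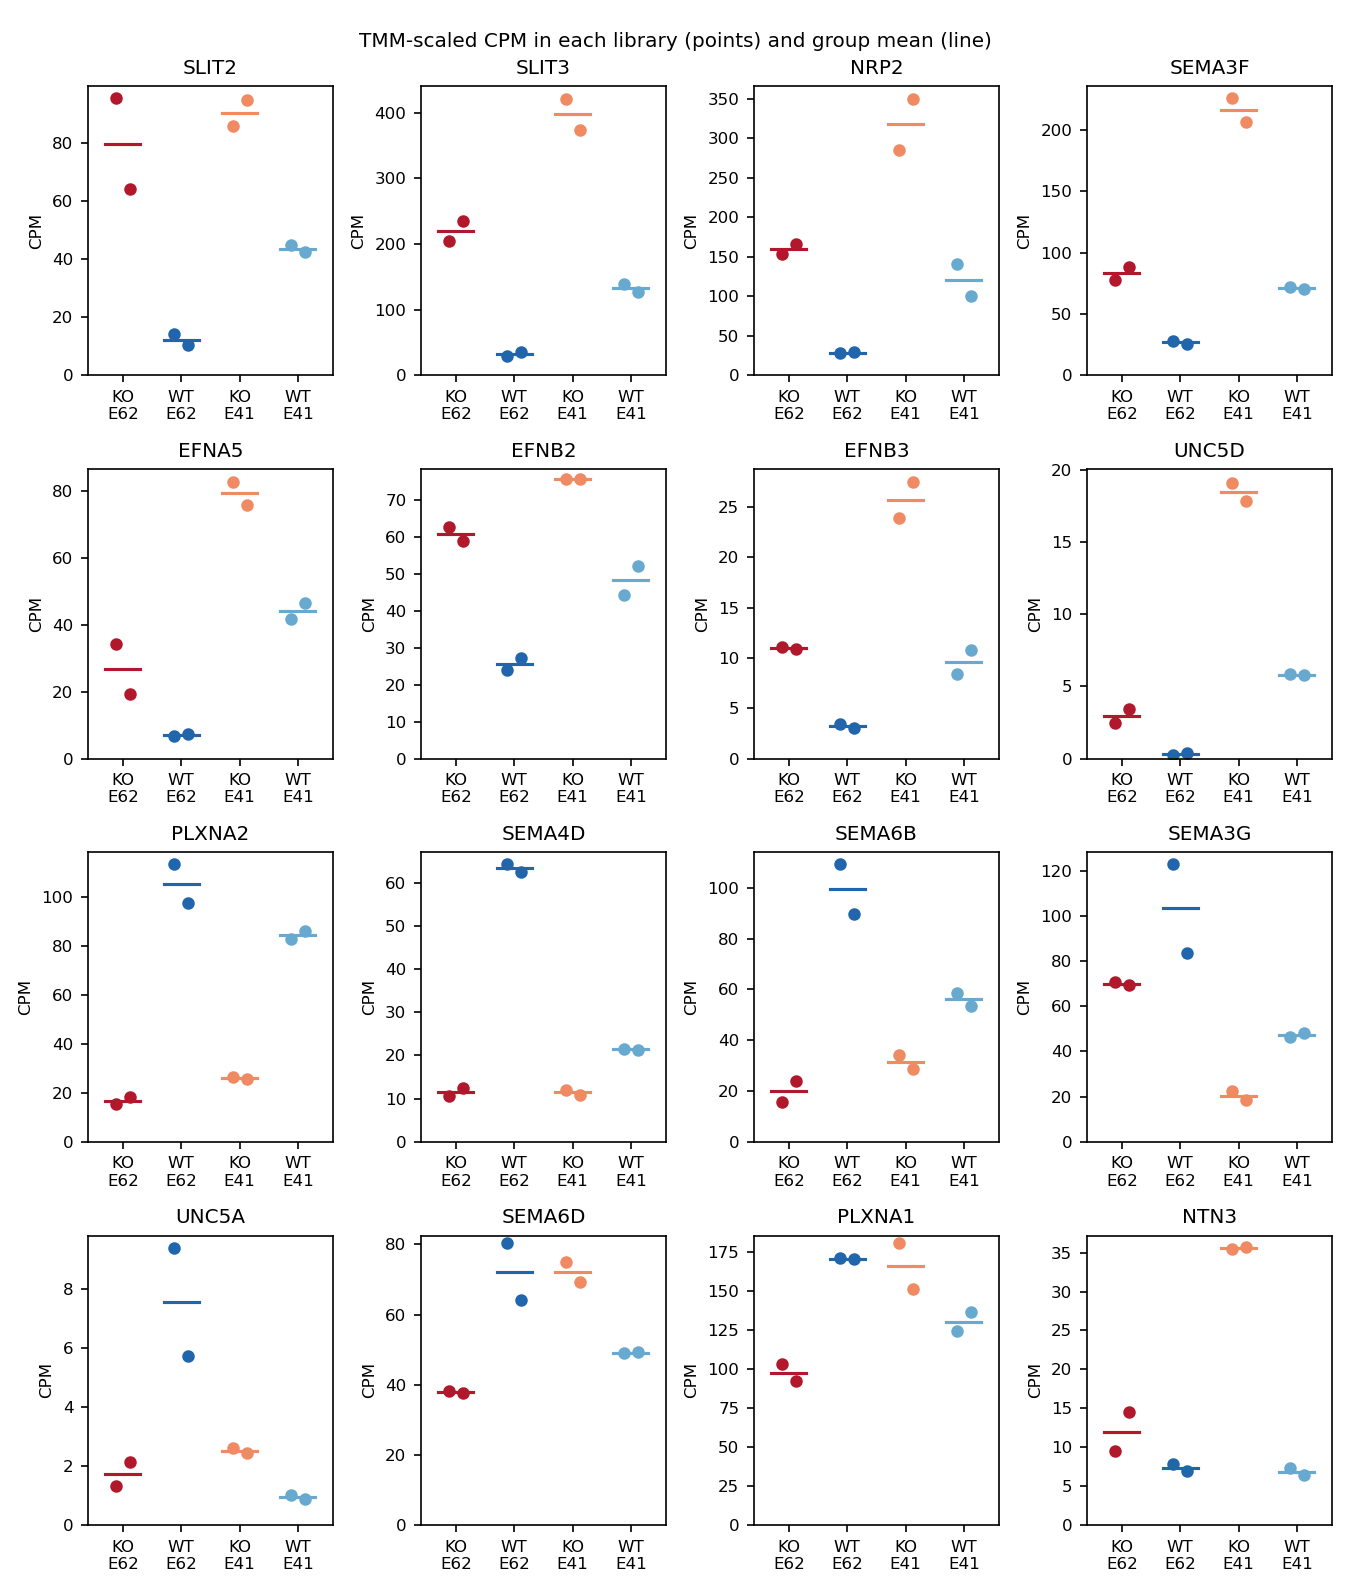
TMM-scaled CPM of 16 members in each library (points) with group means (lines), knockout then wild type at E62 and at E41; every axis starts at 0. In the first 2 rows knockout lies above wild type at both stages, in the third below it, and in the fourth UNC5A, SEMA6D and PLXNA1 change order with stage while NTN3 is highest in knockout E41, at 35.5 and 35.7 CPM.

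Of the 8 ephrins, 6 were called higher at E62 (75.0%, against 21.0% of all genes) and 7 at E41 (87.5%, against 18.5%), and none was called lower. EFNA5, a GPI-anchored ephrin that repels EphA-bearing axons and muscle precursors, had 34.2 and 19.1 CPM in knockout E62, against 6.62 and 7.22 CPM in wild-type E62, and 82.6 and 75.8 CPM in knockout E41, against 41.7 and 46.5 CPM in wild-type E41. The change was 1.95 ± 0.26 at E62 (adjusted p = 0.0011) and 0.84 ± 0.25 at E41 (adjusted p = 0.033), and leaving out any single E41 library ended the E41 call (up to 0.133). EFNB3, a transmembrane ephrin known as a midline repellent, had 11.1 and 10.9 CPM in knockout E62, against 3.40 and 3.03 CPM in wild-type E62, and 23.9 and 27.5 CPM in knockout E41, against 8.36 and 10.8 CPM in wild-type E41. Its changes, 1.77 ± 0.17 and 1.42 ± 0.17, held in every fit (adjusted p = 0.00014 and 0.00057). EFNB2, the arterial ephrin, had 62.5 and 58.7 CPM in knockout E62, against 24.0 and 27.1 CPM in wild-type E62, and 75.5 and 75.6 CPM in knockout E41, against 44.3 and 52.0 CPM in wild-type E41. It was 2.37-fold higher at E62 (adjusted p = 8.5e-05) and 1.57-fold higher at E41 (adjusted p = 0.0027). EPHB4, its venous receptor, was higher by a like amount at both stages (0.73 ± 0.12 and 0.72 ± 0.12), with 117 and 151 CPM in knockout E62, against 83.2 and 78.2 CPM in wild-type E62, and 152 and 156 CPM in knockout E41, against 92.6 and 93.7 CPM in wild-type E41.

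The other ephrins called at both stages were EFNA1 (0.65 ± 0.18 and 0.59 ± 0.19), EFNA2 (0.65 ± 0.13 and 0.92 ± 0.13) and EFNA4 (1.29 ± 0.22 and 0.99 ± 0.22), while EFNB1 was called at E41 alone (0.57 ± 0.13, against 0.27 ± 0.13 at E62). EFNA1 lost its calls without 3 libraries at each stage (up to 0.107 at E62 and 0.154 at E41), and EFNA4 lost its E41 call without knockout E41 replicate 1 (0.063). EFNA3 missed the threshold at E62 (1.41 ± 0.49, adjusted p = 0.055) and E41 (1.21 ± 0.48, adjusted p = 0.089), with 12.4 and 6.07 CPM in knockout E62, against 3.97 and 2.97 CPM in wild-type E62. EFNA1, EFNA3 and EFNA4 lie beside each other on chromosome 4 of Sscrofa11.1 (RefSeq), at 94666457 to 94673442, 94709941 to 94719350 and 94730790 to 94735578.

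Of the 5 EphB receptors, 4 were higher at both stages (80%, against 21.0% of all genes at E62 and 18.5% at E41) and EPHB1 had no call. EPHB2, a receptor of B-type ephrins in axon pathfinding, had 173 and 217 CPM in knockout E62, against 124 and 127 CPM in wild-type E62, and 160.5 and 152 CPM in knockout E41, against 104 and 89.4 CPM in wild-type E41 (0.64 ± 0.13 and 0.69 ± 0.13, with calls in every fit). EPHB3 was higher by 1.17 ± 0.15 at E41 (adjusted p = 0.00077) and 0.44 ± 0.14 at E62 (adjusted p = 0.038, lost in several fits, up to 0.226 without knockout E62 replicate 2). EPHB6, which lacks kinase activity, changed by 1.54 ± 0.38 at E62 and 1.38 ± 0.37 at E41, the E62 call lost without wild-type E62 replicate 1 (0.0923) and in limma-voom (0.0618), and the E41 call without any single E41 library (up to 0.111).

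Of the 9 EphA receptors, 3 were higher and 1 lower at E62 (33.3% and 11.1%, against 21.0% and 26.2% of all genes). At E41, 3 were higher (33.3%, against 18.5%) and none lower. The shares called either way, 44.4% at E62 and 33.3% at E41, lay near those of all genes, 47.2% and 39.2%. EPHA4, which sorts limb motor axons in mouse and chick, was higher at both stages (0.74 ± 0.21 and 0.81 ± 0.20), with 18.7 and 11.9 CPM in knockout E62, against 9.47 and 8.86 CPM in wild-type E62, and 36.0 and 42.4 CPM in knockout E41, against 22.8 and 21.8 CPM in wild-type E41. Its calls were lost without some libraries (up to 0.1 without wild-type E62 replicate 2 and 0.091 without knockout E41 replicate 2). EPHA2 was higher at E62 (0.74 ± 0.18), lost without knockout E62 replicate 2 (0.0646) or wild-type E62 replicate 2 (0.0675), and EPHA5 at E41 (1.14 ± 0.29), lost without 3 of the E41 libraries (up to 0.0858). EPHA1, an epithelial Eph receptor, had 4.28 and 1.94 CPM in knockout E62, against 0.752 and 0.530 CPM in wild-type E62, and 13.1 and 10.3 CPM in knockout E41, against 3.62 and 9.51 CPM in wild-type E41. The E62 change was 2.28 ± 0.59 (adjusted p = 0.018) and was lost without knockout E62 replicate 1 (0.0716) or either wild-type E62 replicate (0.0684 and 0.1), and in limma-voom (0.0739). Keratinocyte markers, 6 found of 8, summed to 1093 and 49.6 CPM in knockout E62, against 17.0 and 17.5 CPM in wild-type E62, and to 1401 and 777 CPM in knockout E41, against 640 and 1006 CPM in wild-type E41. Knockout E62 replicate 1 was the high E62 library for those markers and for EPHA1, and their part in the EPHA1 values was not tested.

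EPHA6 was the EphA receptor called lower, with 0.472 and 0.167 CPM in knockout E62, against 1.17 and 1.24 CPM in wild-type E62 (-1.90 ± 0.66, adjusted p = 0.045, lost in several fits, up to 0.171 without knockout E62 replicate 2). EPHA7, with 15.0 and 19.0 CPM in knockout E62, against 27.4 and 20.3 CPM in wild-type E62, and 66.7 and 67.1 CPM in knockout E41, against 58.5 and 46.6 CPM in wild-type E41, was not called at either stage. EPHA3 and EPHA10, a receptor without kinase activity, had no call either, at 0.73 ± 0.27 and 1.97 ± 0.96 for E62. EPHA8 rested on few counts: 59 and 15 in knockout E41, against 2 and 1 in wild-type E41, a ratio of 11.5 (95% exact interval 3.8 to 57.3, counting error only), and the call was lost in 8 of 16 alternative fits, among them DESeq2 (0.071), limma-voom (0.0972) and the omission of knockout E41 replicate 1 (0.323) or of either wild-type E41 replicate (0.122 and 0.183).

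Netrin ligands went different ways. NTN3, a netrin that binds the same receptor families as NTN1, had 9.46 and 14.6 CPM in knockout E62, against 7.85 and 6.92 CPM in wild-type E62, and 35.5 and 35.7 CPM in knockout E41, against 7.34 and 6.37 CPM in wild-type E41. The knockout E41 libraries stood far above the other 6, with a change of 2.38 ± 0.21 at E41 (adjusted p = 0.00019) and 0.70 ± 0.20 at E62 (adjusted p = 0.024, lost in several fits, up to 0.127 without knockout E62 replicate 2). NTN1, the classical axon attractant, had 9.71 and 14.1 CPM in knockout E62, against 20.6 and 22.2 CPM in wild-type E62, and 7.81 and 9.16 CPM in knockout E41, against 15.0 and 13.2 CPM in wild-type E41. It was lower, with changes of -0.85 ± 0.19 at E62 (adjusted p = 0.008) and -0.73 ± 0.20 at E41 (adjusted p = 0.021), and the E41 call was lost in several fits (up to 0.119 without knockout E41 replicate 1). NTN4, a laminin-related netrin, was not called at either stage, and neither was NTN5. At E62, NTN5 varied within groups, with 3.79 and 1.32 CPM in knockout E62, against 1.68 and 14.3 CPM in wild-type E62. At E41 its groups did not overlap, with 1.23 and 0.760 CPM in the knockout, against 3.53 and 3.41 CPM in wild type. The E41 change was -1.80 ± 1.04 (adjusted p = 0.221).

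Among netrin receptors, UNC5D and UNC5C were higher in knockout E62 than in wild-type E62, and UNC5A was lower. UNC5D, a repulsive receptor, had 2.46 and 3.40 CPM in knockout E62, against 0.211 and 0.412 CPM in wild-type E62, and 19.1 and 17.9 CPM in knockout E41, against 5.85 and 5.80 CPM in wild-type E41. It was 9.31-fold higher at E62 (3.22 ± 0.32, adjusted p = 0.00016) and 3.18-fold higher at E41 (1.67 ± 0.26, adjusted p = 0.002). UNC5A had 1.33 and 2.14 CPM in knockout E62, against 9.38 and 5.74 CPM in wild-type E62, but 2.60 and 2.43 CPM in knockout E41, against 1.01 and 0.885 CPM in wild-type E41. The groups did not overlap at either stage and their order turned round, -2.13 ± 0.35 at E62 (adjusted p = 0.0018) and 1.41 ± 0.37 at E41 (adjusted p = 0.020); leaving out any single E41 library ended the E41 call (0.0595 to 0.0876), as did limma-voom (0.1).

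UNC5C, with 9.28 and 9.58 CPM in knockout E62, against 3.82 and 1.86 CPM in wild-type E62, was called at E62 (1.73 ± 0.33, adjusted p = 0.0051) and not at E41 (0.71 ± 0.30, adjusted p = 0.11). UNC5B, a receptor also known from vessels, was called at E41 (0.84 ± 0.15, adjusted p = 0.0037) and not at E62 (0.17 ± 0.15). NEO1 was higher at E41 by 0.41 ± 0.14 (adjusted p = 0.047), a call lost in 9 of the 17 alternative fits. DCC, the attractive netrin receptor, had 77 and 8 counts in knockout E62, against 2 and 2 in wild-type E62, and its E62 call (3.36 ± 1.06, adjusted p = 0.034) was lost in 10 of 16 alternative fits, among them limma-voom (0.182) and the omission of knockout E62 replicate 1 (0.272) or of either wild-type E62 replicate (0.149 and 0.141). UNC50 had no call at either stage, and UNC5CL stayed under 1 CPM, with its E62 call (-2.37 ± 0.72) lost in 7 fits.

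The test of the difference itself, the knockout effect at E62 minus that at E41, called 21 members or 29.2%, against 26.8% of all genes tested, 6 of them upward (8.33%, against 11.2% of all genes) and 15 downward (20.8%, against 15.5%). The share of members called was thus close to that of all genes. The effect was more positive at E62 for SLIT2 (1.66 ± 0.30, adjusted p = 0.0079), UNC5D (1.55 ± 0.41, adjusted p = 0.027), SLIT3 (1.20 ± 0.18, adjusted p = 0.0037) and NRP2 (1.08 ± 0.24, adjusted p = 0.015), and also for SEMA4F and EFNB2. It was more negative for UNC5A (-3.53 ± 0.51, adjusted p = 0.0031), NTN3 (-1.68 ± 0.29, adjusted p = 0.006), SEMA4D (-1.56 ± 0.16, adjusted p = 0.0011) and SEMA6B (-1.49 ± 0.29, adjusted p = 0.01). By family, 7 of the 13 membrane semaphorins (53.8%) and 4 of the 9 plexins (44.4%) were called more negative at E62, against 15.5% of all genes, a description of small families with no test, and 1 membrane semaphorin was called more positive, while none of the 7 secreted semaphorins or 4 Robos was called. For PLXNA1, SEMA6C, SEMA6D and UNC5A the effects at the stages were called in opposite directions. The 13 calls that held in every fit were NTN3, PLXNA1, PLXNA2, PLXNA3, SEMA4B, SEMA4C, SEMA4D, SEMA6B, SEMA6C, SEMA6D, SLIT2, SLIT3 and UNC5A. Those of UNC5D and NRP2 were lost without some libraries (up to 0.102 and 0.0653), and the count of members was 13 without knockout E41 replicate 1.

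**Figure D3:**
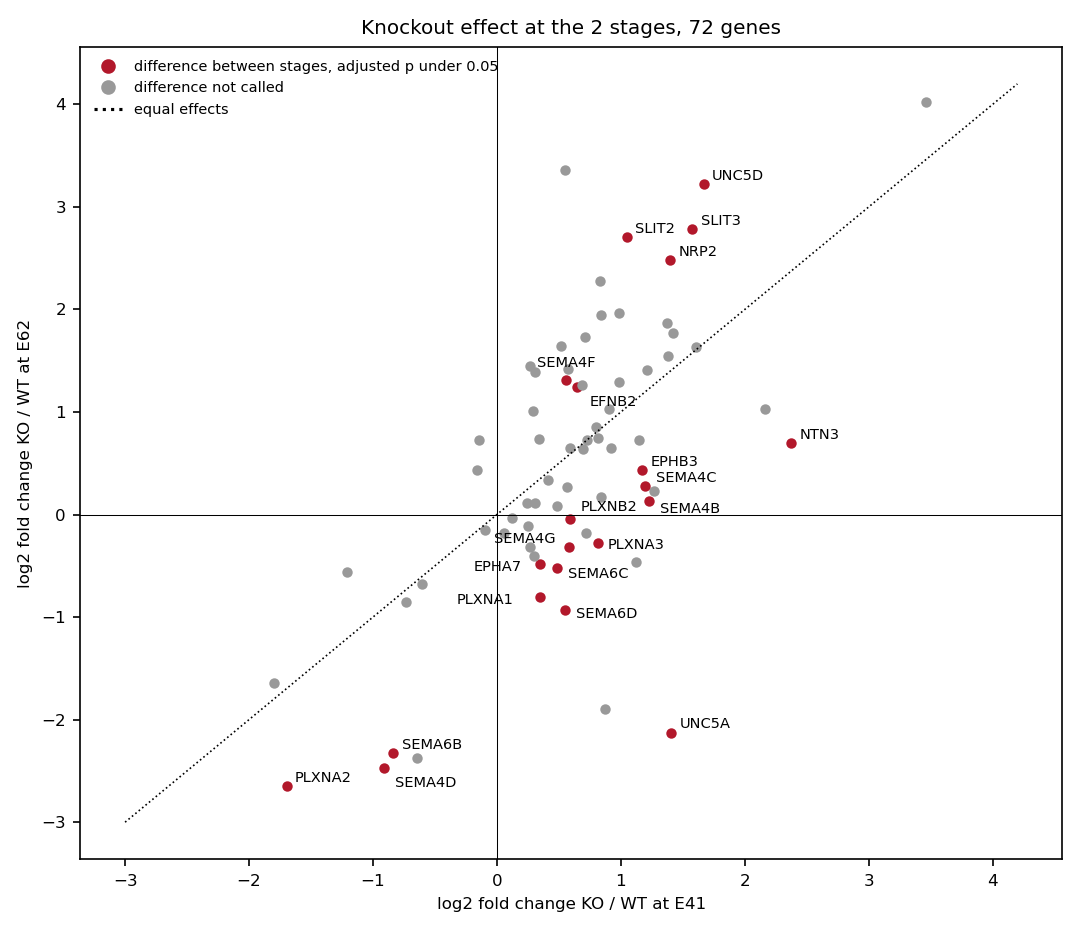
Knockout effect at E62 (vertical axis) against E41 (horizontal axis), both as log2 fold change of knockout over wild type, for the 72 members; red points were called in the test of the difference, and the dotted line marks equal effects. SLIT2, SLIT3, NRP2 and UNC5D lie above the line, and UNC5A lies farthest below it, at -2.13 for E62 and 1.41 for E41.

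Within each genotype, most stage differences of members were decreases. In the knockout, 32 members were lower and 1 higher at E62 than at E41, 45.8% in all, against 30.1% of all genes tested, of which 12.1% were higher and 18.0% lower. In wild type, 26 members were lower and 13 higher at E62, 54.2% in all, against 39.8% of all genes tested, of which 19.8% were higher and 20.0% lower. The median stage change of the members was -0.53 in the knockout and -0.14 in wild type, against -0.03 and 0.03 over all genes. These comparisons use the same libraries as the genotype comparisons above and are not independent of them.

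In the knockout, large decreases on the log2 scale were those of SLIT1 (-3.35 ± 0.38, adjusted p = 0.0016), UNC5D (-2.66 ± 0.26, adjusted p = 0.001), EPHA7 (-1.97 ± 0.19, adjusted p = 0.00098) and EPHA1 (-1.91 ± 0.53, adjusted p = 0.034). The EPHA1 call was lost without some libraries (up to 0.139 without knockout E41 replicate 1). SEMA3G was the member that rose with stage in the knockout (1.78 ± 0.18, adjusted p = 0.0012), and it rose in wild type as well (1.13 ± 0.18, adjusted p = 0.0028).

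In wild type, UNC5A rose by 2.99 ± 0.38 (adjusted p = 0.0011), SEMA4D by 1.57 ± 0.12 (adjusted p = 0.0002) and PLXNA3 by 1.23 ± 0.13 (adjusted p = 0.00052). None of these 3 was called with stage in the knockout. The test that a stage change differs between genotypes is the same as the test of the difference between stages above, where all 3 were called. In wild type the called members that fell most were DCC (-5.09 ± 1.06, adjusted p = 0.0083), UNC5D (-4.21 ± 0.33, adjusted p = 0.00022), EPHA1 (-3.35 ± 0.61, adjusted p = 0.0055) and UNC5C (-2.90 ± 0.34, adjusted p = 0.0012). The size of the DCC fall is uncertain, since DCC had 2 and 2 counts in wild-type E62. The DCC call was lost without either wild-type E62 replicate (0.0567 and 0.0624). SLIT2 shows the contrast between genotypes: its stage change in wild type was -1.84 ± 0.22 (adjusted p = 0.0011), while in the knockout its 95.3 and 64.2 CPM at E62 lay around the 85.7 and 94.9 CPM at E41.

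Several members lie near each other in the genome (RefSeq, Sscrofa11.1). SEMA3F (chromosome 13, 32641376 to 32671231) and SEMA3B (32737100 to 32749633), which are 65.9 kb apart, were both higher at both stages. ROBO3 and ROBO4 (chromosome 9, 52065043 to 52081764 and 52083757 to 52097784) are 1.99 kb apart and had no call at either stage. EPHA8 and EPHB2 (chromosome 6) are 100.1 kb apart, and EPHB2 was called at both stages but EPHA8 at E41 only. Pairs farther apart included like and unlike ones. ROBO1 and ROBO2, 886.2 kb apart, were both called at E62 only. SEMA3D and SEMA3A, 448.8 kb apart, were called at E62 only and at E41 only. SEMA3A, PLXNA3 and NEO1 were called at E41, while their neighbours SEMA3E, PLXNB3 and SEMA7A had no call at either stage. These are descriptions of position, and no test of neighbourhood was made.

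Other genes of the pathway were taken from 2 lists. Of 33 measured intracellular genes, which carry guidance signals to the cytoskeleton, 8 were higher and 11 lower at E62 (24.2% and 33.3%, against 21.0% and 26.2% of all genes tested), and 5 were higher and 11 lower at E41 (15.2% and 33.3%, against 18.5% and 20.8%). At E62 these shares lay near those of all genes. DPYSL5, a collapsin response mediator, was lower in the knockout (-6.91 ± 0.17 at E62 and -2.90 ± 0.14 at E41). So were ABLIM3, an actin-binding protein of striated muscle (-3.70 ± 0.17 and -3.33 ± 0.17), and PAK1, a kinase downstream of Rac and Cdc42 (-3.31 ± 0.15 and -1.66 ± 0.14). The genes called higher in this list are not named here. Changes in the list ran up to 3.83 at E62 and 2.67 at E41, with medians of 0.07 and -0.17. Of 28 tested genes for further cues and receptors, from a list of 30, 14 were higher and 7 lower at E62 (50% and 25%, against 21.0% and 26.2% of all genes tested), and 13 were higher and 3 lower at E41 (46.4% and 10.7%, against 18.5% and 20.8%). The share lower at E62 was thus close to that of all genes. NELL2, a secreted ligand of ROBO3 in mouse, was higher by 6.31 ± 0.31 and 1.99 ± 0.22. FLRT1, a membrane protein whose family binds UNC5 receptors, was higher by 3.36 ± 0.20 and 2.65 ± 0.19. BOC, a receptor of the hedgehog pathway in axon guidance, was higher by 1.62 ± 0.11 and 2.02 ± 0.11. The genes called lower among these cues and receptors are not named here. Their list ran down to -2.77 at E62 and -1.76 at E41, with medians of 0.46 and 0.70.

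Markers of other cell types moved with genotype, and their part in the values of the guidance genes was not tested. Fibroblast markers, 11 of 11 found, summed to 86586 and 92812 CPM in knockout E62, against 26576 and 46710 CPM in wild-type E62, and to 50469 and 54523 CPM in knockout E41, against 38860 and 23225 CPM in wild-type E41. Neuron markers, 10 of 12 found, summed to 99.6 and 63.7 CPM in knockout E62, against 23.6 and 10.7 CPM in wild-type E62, and to 420 and 415 CPM in knockout E41, against 253 and 437 CPM in wild-type E41, with ELAVL3 at 0 in all wild-type libraries. Neuron markers were thus apart by genotype at E62 and overlapping at E41, and lower at E62 than at E41 in both genotypes. Schwann cell markers, 9 of 10 found, summed to 89.5 and 114 CPM in knockout E62, against 517 and 537 CPM in wild-type E62, and to 246 and 165 CPM in knockout E41, against 393 and 423 CPM in wild-type E41, although of the 9 genes 2 were called higher and 2 lower at E62, and 3 higher and 2 lower at E41. Macrophage markers, 8 of 8 found, summed to 736 and 705 CPM in knockout E62, against 157 and 181 CPM in wild-type E62, and to 244 and 240 CPM in knockout E41, against 233 and 111 CPM in wild-type E41. Pericyte and smooth muscle markers, 10 of 10 found, summed to 751 and 895 CPM in knockout E62, against 1886 and 2008 CPM in wild-type E62, and to 727 and 757 CPM in knockout E41, against 1666 and 1456 CPM in wild-type E41. Of these 10, 2 were called higher and 5 lower at E62, and 1 higher and 4 lower at E41. Adipocyte markers, 7 of 7 found, summed to 158 and 237 CPM in knockout E62, against 132 and 159 CPM in wild-type E62, and to 48.8 and 51.1 CPM in knockout E41, against 43.4 and 48.3 CPM in wild-type E41, with 5 called higher and 1 lower at E62 and 1 higher at E41. Tendon markers, 7 of 7 found, had 2 called higher and 1 lower at E62 and 1 higher at E41, and erythroid markers, 5 of 8 found, none called at E62 and 1 higher at E41. Muscle, pericyte and smooth muscle and Schwann cell sums were thus lower in the knockout at both stages. Cartilage and bone markers reached 3735 CPM in knockout E41 replicate 2, against 376 CPM in replicate 1 of that group.

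**Figure D4:**
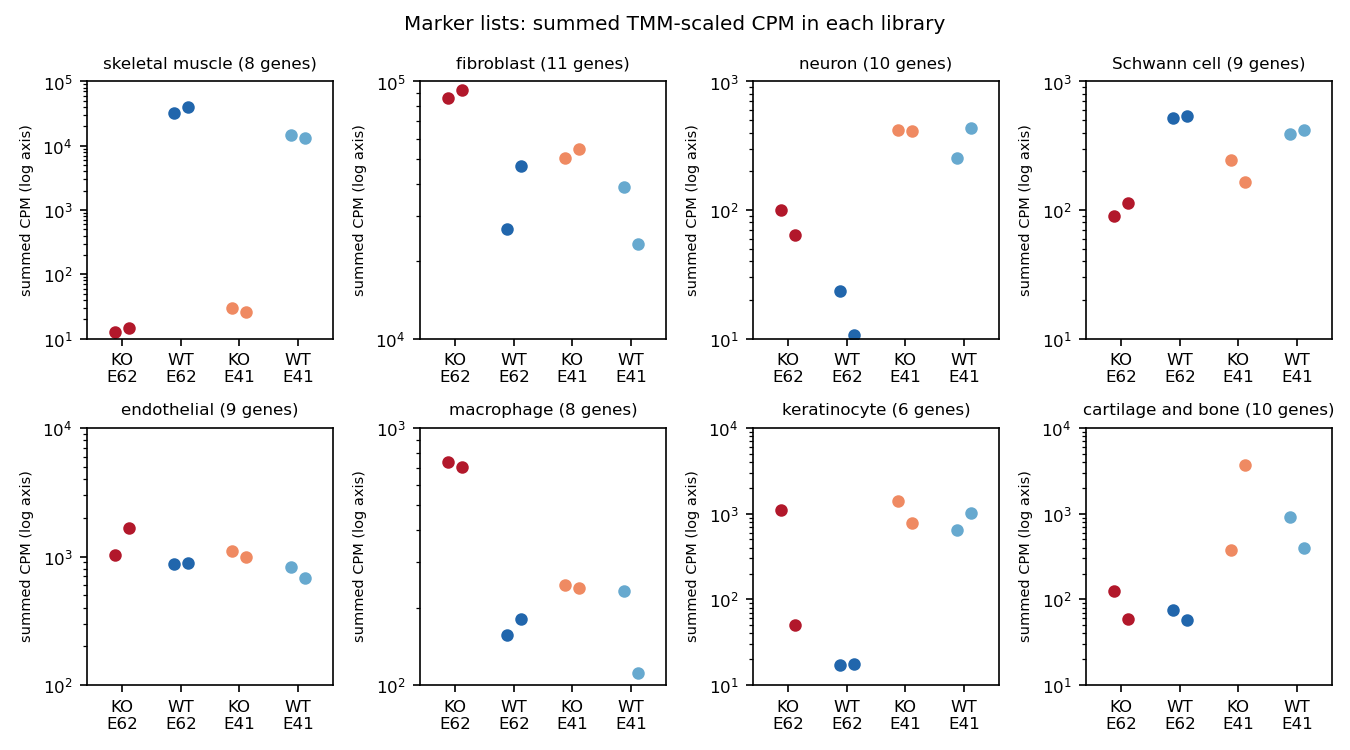
Summed TMM-scaled CPM of 8 marker lists in each library (log axis), knockout then wild type at E62 and at E41, with the number of genes found in each list. Skeletal muscle markers are at 12.4 to 29.9 CPM in the knockout libraries and at 13225 to 39716 CPM in wild type, and fibroblast markers are highest in knockout E62, at 86586 and 92812 CPM.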

How the data were processed

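Whole limb muscle tissue was sequenced, and the authors deposited estimated counts per gene, whole numbers that are not normalized, in 1 table of 8 libraries. The submitters' processing notes name kallisto, DESeq2, Sscrofa11.1 and susScr11 without role or version. The labels' protocols name TruSeq kits, unstranded or stranded; strand in counting is not given in the sources used here, so antisense partners cannot be told apart, and estimated counts divide reads among close paralogs. Symbols were found for 15527 of 22516 identifiers (69.0%), and coordinates came from RefSeq (Sscrofa11.1) by symbol for all 72 members.

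Groups follow the sample titles. Genes passing filterByExpr (minimum count 10; 17020 genes) were fitted in edgeR 4.0.16 (R 4.3.3) with TMM factors, a mean for each of the 4 groups over all 8 libraries (4 residual degrees of freedom, biological coefficient of variation 0.204) and the robust quasi-likelihood F test. SE is the log2 change over the square root of F. Counts of replicates were farther apart than sampling allows (chi-square over its degrees of freedom, 31.8 to 70.0). Alternatives were DESeq2 1.42.0, limma-voom 3.58.1, other scalings, filters and fits, thinning and leaving out each library. On simulated data for knockout against wild type at E41 (16690 genes), 26, 45, 48 and 49 of 50 genes were recovered at 2-, 4-, 8- and 16-fold, with 14 calls among unchanged genes. The simulation changed few genes, with up and down in equal number, whereas 39.2% of all genes were called at E41. Its recovery and false calls therefore do not carry over to the calls given here.

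Members and gene lists were chosen with earlier results of these data known. Values in every library were given for up to 6 members called each way by size in each genotype comparison (mean of at least 1 CPM in 1 group) and up to 4 each way in the other comparisons; others were named with changes or, where chosen for a ligand and receptor pairing, with levels. For the pathway lists the rule was up to 3 genes each way by smallest p. Only lower intracellular genes and higher cues and receptors were named. Intervals cover counting error only.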

Additional observations from a re-analysis of the deposited data

Results flagged for a closer look

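A knockout effect that differed between E62 and E41, by the interaction term of the edgeR fit, was called for 21 members. This is 29.2%, close to the 26.8% of all genes tested. Of these calls, 13 held in every fit. The 8 lost in at least 1 fit were EFNB2, EPHA7, EPHB3, NRP2, PLXNB2, SEMA4F, SEMA4G and UNC5D. The difference is given as the effect at E62 minus that at E41 on the log2 scale. It was above 0 for SLIT2 (1.66), UNC5D (1.55), SLIT3 (1.20), NRP2 (1.08), SEMA4F (0.76) and EFNB2 (0.60). It was below 0 for PLXNB2 (-0.64), EPHB3 (-0.73), EPHA7 (-0.83), SEMA4G (-0.90), SEMA4C (-0.92), PLXNA2 (-0.95), SEMA6C (-1.01), PLXNA3 (-1.09), SEMA4B (-1.09), PLXNA1 (-1.16), SEMA6D (-1.48), SEMA6B (-1.49), SEMA4D (-1.56), NTN3 (-1.68) and UNC5A (-3.53). Groups of 2 libraries are too small for a check of single libraries that lie apart.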

How the results depend on the processing

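Over the 5 comparisons, 103 of 181 calls of members held in every alternative, 78 were lost in at least 1, and 0 changed direction; of 179 without a call, 79 changed sign in at least 1. The count of members called at E41 (45 as reported) ranged from 25 to 46 with single libraries left out: 25 and 27 without knockout E41 replicates 1 and 2, and 33 and 28 without wild-type E41 replicates 1 and 2. The count for the difference between stages (21) ranged from 13 to 24 in the same fits, and was 31 with DESeq2, of which 14 were upward (45.2%, against 28.6% as reported). At E62 (43) and for stage in the knockout (33) and in wild type (39), the count of members also moved when single libraries were left out. The share of all genes called moved as well. In all 5 comparisons the omission that left the fewest members called also left the smallest share of all genes called. These shifts are thus not read as particular to the members. How many calls of all genes held in every alternative was not counted. With library size alone the median of all genes moved by 0.30 at E62 and 0.29 at E41, and members called were 47 at E62 (39 higher, 8 lower; 83% higher, against 72.1% as reported) and 49 at E41 (46 higher, 3 lower; 93.9%, against 86.7%); calls of all genes shifted likewise, to 69.4% higher at E62, against 44.5% as reported, and to 73.6% at E41, against 47.1%. Leaving a group with 1 library assumes that it varies like the other groups.

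Same-numbered replicates share only a number (correlation of deviations -0.01 at E62 and -0.12 at E41). With the replicate number as a block, 39 members were called at E62, 41 at E41, 19 in the difference, 31 with stage in the knockout and 36 in wild type; with the E41 pairing crossed, an alternative chosen after seeing the data, 40 at E41. Depth limits EPHA8, EPHA10, ROBO3 and UNC5CL, which lay near or under 1 CPM. It also limits DCC in wild-type E62, at 0.060 and 0.059 CPM.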
